A study of Mus musculus with 12 samples.

Results

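The genes described here are the constant regions of the antibody chains and the J chain: the 8 heavy chain genes Ighm, Ighd, Ighg3, Ighg1, Ighg2b, Ighg2c, Ighe and Igha, the kappa light chain gene Igkc, and Jchain. They were taken by symbol from the deposited table, which held all 10 among 27179 gene IDs. RNA was sequenced from NK cells sorted from pancreatic tumours of WT mice on day 21, with 3 libraries in each of 4 treatment groups. Combination mice were given cGAMP, an agonist of the DNA-sensing adaptor STING, together with IL-35 blocking antibodies. The anti-IL-35 mice had the antibody alone, the cGAMP mice the agonist alone, and the IgG control mice control IgG. cGAMP was given intravenously at 10 µg, 4 times at intervals of 3 days starting on day 8, with PBS as its vehicle. The antibody was given intraperitoneally at 200 µg, 3 times at intervals of 3 days starting on day 8. The sources used here do not name the mouse strain, the tumour line or the sorting gate. The labels number the libraries of a group as repeats of 1 name, with no word on separate animals. P-values therefore measure how much those libraries vary, and that variation may be technical only.

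Antibodies are made by B cells and by the plasma cells they give rise to. A B cell first joins its variable region to Ighm and Ighd, the constant regions of IgM and IgD, and class switch recombination can later bring a downstream constant region next to the same variable region, giving IgG, IgE or IgA. The class decides where an antibody goes and which receptors it meets: IgM and IgA are joined into polymers by the J chain, IgG subclasses bind Fc receptors of myeloid and NK cells, and IgE arms mast cells and basophils. NK cells are not known to make antibody, although they carry an Fc receptor for IgG. In the genome the heavy chain genes lie on the minus strand of chromosome 12 between 113256204 and 113422730 (GRCm38), in the order of transcription Ighm, Ighd, Ighg3, Ighg1, Ighg2b, Ighg2c, Ighe and Igha. Igkc lies on chromosome 6 from 70726435 to 70726754 and Jchain on chromosome 5 from 88519809 to 88527897.

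Sequence shows what these counts can and cannot tell apart. A first set is the end of the secreted heavy chain in the classes that the J chain joins, shown because Ighm and Igha have the largest differences in share of heavy chain reads below. Each stretch starts at the splice site that the membrane-bound form uses and ends with the stop codon, and capitals mark the codon of the cysteine before the last residue, through which chains of a polymer are linked.
Ighm, chr12:113420867-113420928, minus strand: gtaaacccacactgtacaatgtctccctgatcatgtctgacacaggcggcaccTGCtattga
Igha, chr12:113258768-113258829, minus strand: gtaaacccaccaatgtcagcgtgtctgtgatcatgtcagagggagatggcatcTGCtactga
Both stretches hold 59 coding bases, against 5 in each of the 4 gamma genes, whose secreted form has no such tail. A count per gene sums secreted and membrane transcripts, and also germline transcripts that are made before switching, so none of the values below separates them. Another set is the first 90 bases of the CH1 exon of the 4 gamma genes, shown because reads of near copies can be hard to assign. Capitals mark the 29 positions at which the 4 genes do not all share a base.
Ighg1, chr12:113330434-113330523, minus strand: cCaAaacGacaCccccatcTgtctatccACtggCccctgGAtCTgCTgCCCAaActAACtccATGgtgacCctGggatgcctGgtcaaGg
Ighg2b, chr12:113307844-113307933, minus strand: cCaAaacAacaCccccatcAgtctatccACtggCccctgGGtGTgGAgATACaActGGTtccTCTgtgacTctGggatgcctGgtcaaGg
Ighg2c, chr12:113288843-113288932, minus strand: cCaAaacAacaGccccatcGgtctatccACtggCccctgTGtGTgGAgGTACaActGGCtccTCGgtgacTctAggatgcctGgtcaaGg
Ighg3, chr12:113361143-113361232, minus strand: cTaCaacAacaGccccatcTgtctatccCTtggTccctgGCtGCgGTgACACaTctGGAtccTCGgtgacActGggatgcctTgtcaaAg
Over the whole CH1 exon, identity between pairs of gamma genes ran from 78.4% for Ighg2c and Ighg3 to 88.3% for Ighg1 and Ighg2b. Of the coding stretches of 50 bases, 9.28% in Ighg2b, 5.97% in Ighg2c, 3.37% in Ighg3 and 0.878% in Ighg1 also occurred in another heavy chain gene. In the other 6 members none did. The sources used here do not say how reads matching several genes were counted, so a small part of the gamma counts, above all of Ighg2b and Ighg2c, is uncertain. Sequences were taken from the GENCODE transcripts of GRCm38.

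The 12 libraries held 12811353 to 22217766 counts. The 10 members took 1.85 to 1.88% of all counts in the combination libraries, 0.979 to 1.01% in the anti-IL-35 libraries, 1.77 to 1.80% in the cGAMP libraries and 1.92 to 1.97% in the IgG control libraries. All 10 NK cell markers examined, among them Gzma and Klrb1c, were detected, and their summed level was 4869 ± 70.9, 5365 ± 200.0, 5811 ± 51.6 and 5236 ± 20.7 CPM (counts per 1000000 counts of a library, after scaling by TMM, the trimmed mean of M values) in the combination, anti-IL-35, cGAMP and IgG control groups (SD, n = 3 each, as for levels, shares and ratios below, while log2 fold changes carry their SE). B cell transcripts were also present in every group. The summed level of 18 B cell surface and identity genes was 1796 ± 17.8 CPM with the combination, 1338 ± 29.8 CPM with anti-IL-35, 1976 ± 44.3 CPM with cGAMP and 2046 ± 16.0 CPM with control IgG. The summed level of 12 neutrophil markers was 17121 ± 77.7, 18678 ± 686, 10149 ± 104 and 4284 ± 88.3 CPM in the same order. T cell markers fell in 11 of 12 genes with the combination and with anti-IL-35 and in 2 with cGAMP, and macrophage markers in 3, 8 and 0 of 10, against the IgG control. Of both lists 1 gene rose, Mrc1 with cGAMP (log2 fold change 0.31 ± 0.05). Of the 10 NK cell markers 0 rose and 5 fell with the combination, 2 rose and 2 fell with anti-IL-35, and 7 rose and 0 fell with cGAMP. By the test described below 23.2%, 25.0% and 12.9% of all genes were called. In bulk RNA, fewer cells of a type and less RNA per cell cannot be told apart, and the part that the amounts of these other cells have in the results below was not tested.

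All 10 members passed the filter on low counts. With anti-IL-35 alone, the members together took a smaller share of the reads than with control IgG, but the classes did not move together: Ighm and Ighg3 fell most, while Igha, Ighg1 and Ighe rose. With cGAMP alone Igha fell and Ighe rose, and with the combination Ighg1 rose and Igha fell, while Igkc and Jchain moved little. Each gene was tested by the quasi-likelihood method of edgeR, and a change was called at a Benjamini-Hochberg adjusted p under 0.05 over 14182 genes. Against the IgG control the combination changed 8 of the 10 members, 6 higher and 2 lower, where 23.2% of all tested genes were called, 15.7% higher and 7.5% lower. Anti-IL-35 changed all 10, 3 higher and 7 lower, where 25.0% of all genes were called, 15.7% higher and 9.32% lower. cGAMP changed 6, 3 higher and 3 lower, where 12.9% of all genes were called, 9.37% higher and 3.56% lower. The median log2 fold change of the 10 members was 0.14 with the combination, -0.61 with anti-IL-35 and -0.00 with cGAMP, where the median of all genes was -0.02, -0.02 and 0.02. These comparisons share the IgG control libraries. Between treatments, the combination differed from anti-IL-35 in all 10 members, 8 higher and 2 lower (5.85% of all genes, 3.67% higher and 2.17% lower). It differed from cGAMP in 7, 6 higher and 1 lower (14.8% of all genes, 9.99% higher and 4.83% lower). Anti-IL-35 differed from cGAMP in 9, 1 higher and 8 lower (20.0% of all genes, 11.5% higher and 8.51% lower).

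**Figure D1:**
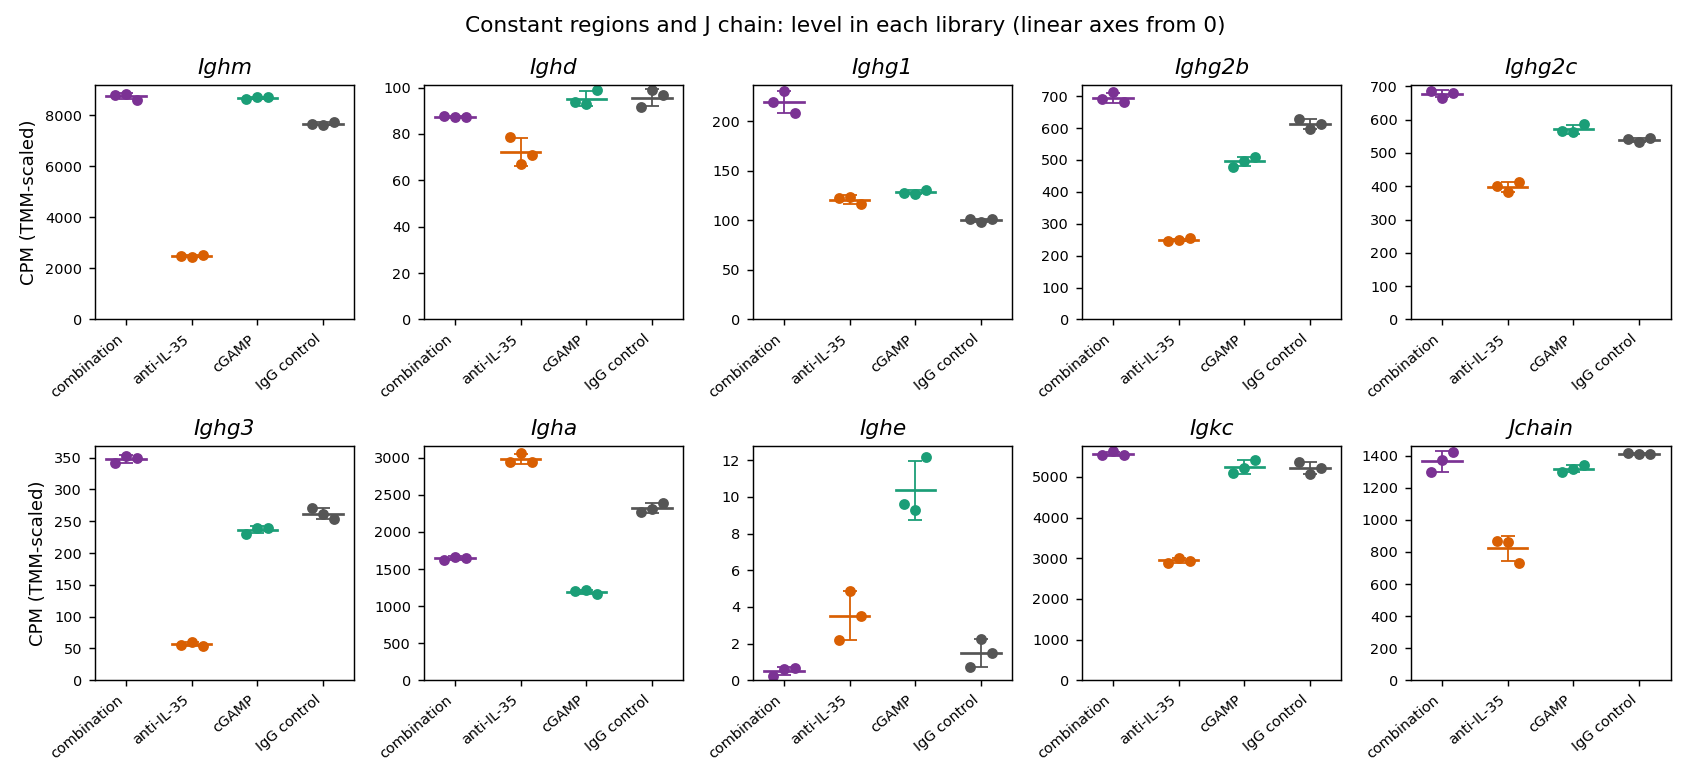
Level of each gene in CPM after TMM scaling (vertical axes, linear from 0), with 1 point per library, a bar at the mean and whiskers of 1 SD. The anti-IL-35 libraries are lowest for Ighm, Ighd, Ighg2b, Ighg2c, Ighg3, Igkc and Jchain and highest for Igha, and the cGAMP libraries are highest for Ighe.

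Ighm and Ighd are the constant regions that a B cell uses before switching. Ighm stood at 8806, 8834 and 8619 CPM in the combination libraries, 2478, 2447 and 2514 CPM in the anti-IL-35 libraries, 8623, 8707 and 8715 CPM in the cGAMP libraries and 7670.0, 7611 and 7739 CPM in the IgG control libraries. The anti-IL-35 libraries lay far below all others, and the combination and cGAMP libraries overlapped each other above the IgG control. The level was 3.09-fold lower with anti-IL-35 than with control IgG (log2 fold change -1.63 ± 0.03 SE, adjusted p = 4.35e-41, edgeR). It was higher by a log2 fold change of 0.19 ± 0.03 with the combination (adjusted p = 1.31e-07) and of 0.18 ± 0.03 with cGAMP (adjusted p = 1.43e-06). Both of these small differences lost their call when libraries were scaled on their totals alone, at log2 fold changes of 0.034 (adjusted p = 0.334, edgeR) and 0.066 (adjusted p = 0.0941). That scaling put the median of all genes at -0.17, -0.15 and -0.09 with the combination, anti-IL-35 and cGAMP against the IgG control.

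Ighd, the IgD constant region, is made with Ighm by alternative processing of 1 long transcript, and it fell less than Ighm with anti-IL-35. Its level was 87.8, 87.4 and 87.2 CPM in the combination libraries, 78.7, 67.0 and 71.1 CPM in the anti-IL-35 libraries, 93.6, 93.1 and 98.9 CPM in the cGAMP libraries and 91.5, 98.8 and 96.8 CPM in the IgG control libraries. The anti-IL-35 libraries were below all others, and the cGAMP and IgG control libraries overlapped. The fall with anti-IL-35 was 1.33-fold against the IgG control (log2 fold change -0.41 ± 0.07, adjusted p = 3.81e-06, edgeR). Against the IgG control the differences with the combination (-0.13 ± 0.07, adjusted p = 0.173) and with cGAMP (-0.008 ± 0.068, adjusted p = 0.966) were not called, although the combination was called lower with libraries scaled on their totals alone (-0.286, adjusted p = 0.000812). Per 100 Ighm reads there were 0.999 ± 0.0113 Ighd reads with the combination, 2.91 ± 0.23 with anti-IL-35, 1.10 ± 0.0341 with cGAMP and 1.25 ± 0.053 with control IgG.

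The 4 IgG subclasses went different ways. Ighg3, which encodes the subclass known in mice from responses to polysaccharides, fell most with anti-IL-35. It stood at 341, 353 and 349 CPM in the combination libraries, 55.7, 60.3 and 54.6 CPM in the anti-IL-35 libraries, 230.0, 240.0 and 240.0 CPM in the cGAMP libraries and 271, 261 and 254 CPM in the IgG control libraries. No library of one group reached the range of another. Ighg3 was 4.61-fold lower with anti-IL-35 than with control IgG (log2 fold change -2.20 ± 0.05, adjusted p = 6.28e-35, edgeR) and 1.33-fold higher with the combination (0.41 ± 0.05, adjusted p = 2.01e-09). The small fall with cGAMP (-0.15 ± 0.05, adjusted p = 0.0338) lost its call without any 1 of 5 libraries. Without cGAMP replicate 1, 2 or 3 its adjusted p was 0.13, 0.0603 or 0.0544, and without IgG control replicate 1 or 2 it was 0.199 or 0.0877.

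Ighg1, the subclass that IL-4 favours in mice, was the gamma gene that rose in all 3 treatments. It stood at 219, 230.0 and 208 CPM in the combination libraries, 123, 124 and 116 CPM in the anti-IL-35 libraries, 128, 127 and 131 CPM in the cGAMP libraries and 101, 98.2 and 101 CPM in the IgG control libraries. The combination libraries were above all others, and the anti-IL-35 libraries lay below the cGAMP libraries without overlap, a difference that was not called (log2 fold change -0.09 ± 0.06, adjusted p = 0.322, edgeR). Against the IgG control Ighg1 was 2.18-fold higher with the combination (1.13 ± 0.06, adjusted p = 4.26e-22), 1.21-fold higher with anti-IL-35 (0.27 ± 0.06, adjusted p = 0.000138) and 1.28-fold higher with cGAMP (0.36 ± 0.06, adjusted p = 3.91e-06).

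Ighg2b and Ighg2c encode the subclasses that bind activating Fc receptors most strongly. Ighg2b stood at 691, 712 and 682 CPM in the combination libraries, 247, 249 and 254 CPM in the anti-IL-35 libraries, 479, 497 and 510.0 CPM in the cGAMP libraries and 627, 598 and 614 CPM in the IgG control libraries. It was lower than in the IgG control with anti-IL-35 (2.45-fold, log2 fold change -1.29 ± 0.04, adjusted p = 7.03e-30, edgeR) and with cGAMP (1.24-fold, -0.31 ± 0.04, adjusted p = 7.63e-08). The rise with the combination (0.18 ± 0.04, adjusted p = 0.000434) was lost when libraries were scaled on their totals alone (0.025, adjusted p = 0.66). Ighg2c stood at 687, 666 and 681 CPM in the combination libraries, 400.0, 383 and 413 CPM in the anti-IL-35 libraries, 565, 562 and 587 CPM in the cGAMP libraries and 541, 532 and 545 CPM in the IgG control libraries. It fell 1.35-fold with anti-IL-35 (-0.44 ± 0.04, adjusted p = 9.21e-13) and rose 1.26-fold with the combination (0.33 ± 0.04, adjusted p = 3.19e-09), while cGAMP made a difference of 0.08 ± 0.04 that was not called (adjusted p = 0.201). For both genes the groups did not overlap, and the anti-IL-35 libraries were the lowest.

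Igha, the constant region of IgA, the class of mucosal secretions, was the member that rose with anti-IL-35 and fell with both treatments that held cGAMP. It stood at 1617, 1664 and 1654 CPM in the combination libraries, 2940.0, 3068 and 2948 CPM in the anti-IL-35 libraries, 1198, 1216 and 1162 CPM in the cGAMP libraries and 2272, 2303 and 2397 CPM in the IgG control libraries. The 4 groups did not overlap. Against the IgG control Igha was 1.28-fold higher with anti-IL-35 (log2 fold change 0.36 ± 0.03, adjusted p = 6.99e-13, edgeR), 1.41-fold lower with the combination (-0.50 ± 0.03, adjusted p = 1.95e-17) and 1.95-fold lower with cGAMP (-0.96 ± 0.03, adjusted p = 9.96e-28). It was the member for which the effect of cGAMP was not shown to depend on the antibody: cGAMP lowered it beside the antibody (combination against anti-IL-35, -0.86 ± 0.03, adjusted p = 1.04e-25) as well as without it, and the difference of those effects was 0.10 ± 0.05 (adjusted p = 0.181). With libraries scaled on their totals alone that difference was 0.19 and was called (adjusted p = 0.00361).

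Ighe, the IgE constant region, was rare in all groups. Its counts were 4, 11 and 13 in the combination libraries, 41, 106 and 68 in the anti-IL-35 libraries, 123, 137 and 233 in the cGAMP libraries and 11, 38 and 26 in the IgG control libraries. Over the 3 libraries of each group that made 28 reads with the combination, 215 with anti-IL-35, 493 with cGAMP and 75 with control IgG, with exact 95% Poisson intervals of 18.6 to 40.5, 187 to 246, 450.0 to 539 and 59.0 to 94.0, which cover counting error only. The cGAMP libraries were above all others, and the anti-IL-35 and IgG control libraries overlapped. Ighe was 6.93-fold higher with cGAMP than with control IgG (log2 fold change 2.79 ± 0.35, adjusted p = 2.63e-08, edgeR) and 20.2-fold lower with the combination than with cGAMP (-4.34 ± 0.40, adjusted p = 2.92e-12). The rise with anti-IL-35 (1.24 ± 0.36, adjusted p = 0.00633) lost its call without anti-IL-35 replicate 2 (adjusted p = 0.0877) or without IgG control replicate 1 (adjusted p = 0.0817). The fall with the combination (-1.54 ± 0.44, adjusted p = 0.00642) lost its call without combination replicate 1 (adjusted p = 0.0564), without IgG control replicate 2 (adjusted p = 0.109) and in a fit of the compared groups alone (adjusted p = 0.0517).

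Igkc and Jchain are shared by the classes, Igkc as the light chain that most mouse antibodies carry and Jchain as the link of polymeric IgM and IgA. Igkc stood at 5542, 5632 and 5532 CPM in the combination libraries, 2891, 3011 and 2934 CPM in the anti-IL-35 libraries, 5089, 5217 and 5421 CPM in the cGAMP libraries and 5367, 5073 and 5210.0 CPM in the IgG control libraries. Jchain stood at 1297, 1374 and 1423 CPM in the combination libraries, 870.0, 863 and 733 CPM in the anti-IL-35 libraries, 1299, 1318 and 1340.0 CPM in the cGAMP libraries and 1418, 1412 and 1409 CPM in the IgG control libraries. For both genes the anti-IL-35 libraries were below all others. Anti-IL-35 lowered Igkc 1.77-fold (log2 fold change -0.82 ± 0.03, adjusted p = 2.08e-27, edgeR) and Jchain 1.72-fold (-0.78 ± 0.04, adjusted p = 2.61e-19). With cGAMP neither was called (0.007 ± 0.030, adjusted p = 0.927 for Igkc and -0.10 ± 0.04, adjusted p = 0.14 for Jchain), but Jchain was called in a fit of the compared groups alone (-0.13, adjusted p = 0.000829), without a filter on low counts (-0.134, adjusted p = 0.00527), with library totals alone (-0.212, adjusted p = 0.000553) and without anti-IL-35 replicate 1 (-0.132, adjusted p = 0.0202) or 3 (-0.10, adjusted p = 0.0175). The combination raised Igkc by 0.09 ± 0.03 (adjusted p = 0.0167), a call that was lost without a filter (adjusted p = 0.23) and turned to -0.062 with libraries scaled on their totals alone (adjusted p = 0.101). It was lost too without combination replicate 2 (adjusted p = 0.0907), anti-IL-35 replicate 1 (adjusted p = 0.126) or IgG control replicate 2 or 3 (adjusted p = 0.16 and 0.0641). Jchain differed by -0.05 ± 0.04 with the combination, which was not called (adjusted p = 0.46), but was with library totals alone (-0.206, adjusted p = 0.000298).

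**Figure D2:**
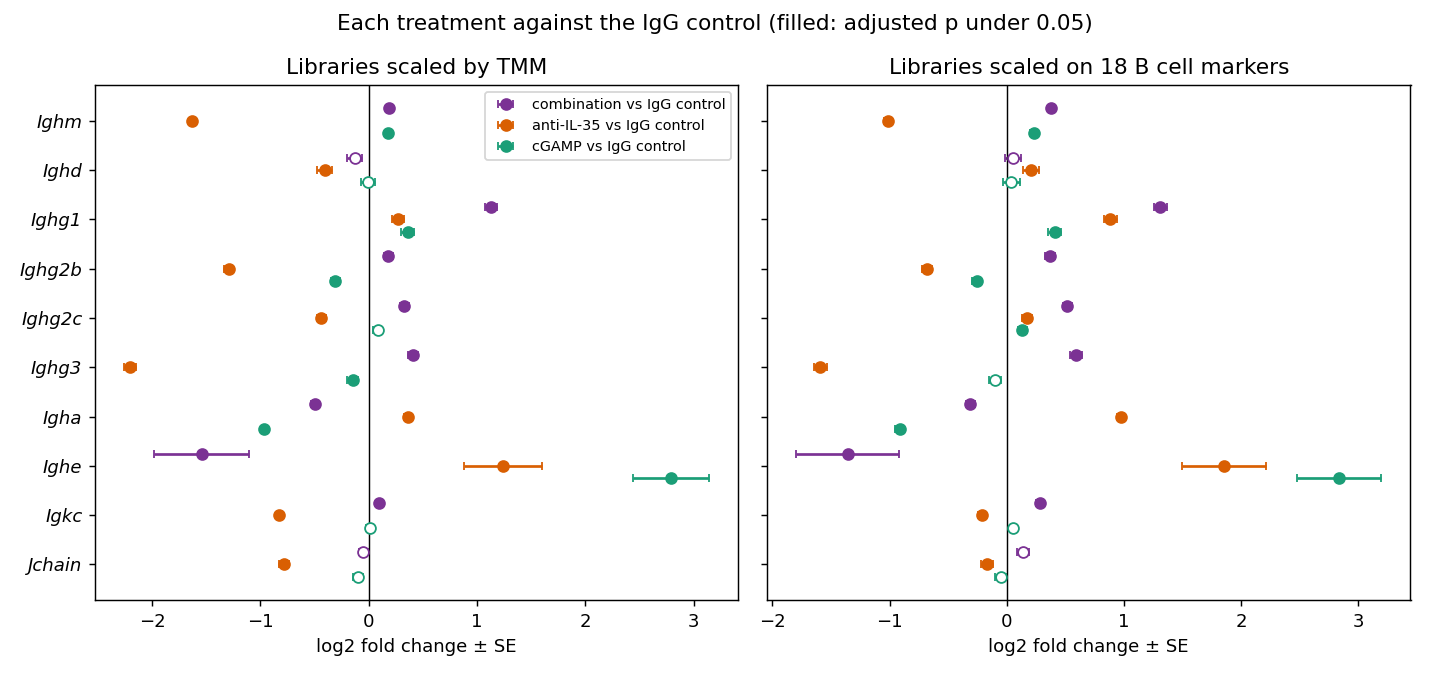
Log2 fold change of each member against the IgG control (horizontal axes, point ± SE), with libraries scaled by TMM on the left and on 18 B cell markers on the right. Filled points have an adjusted p under 0.05 by edgeR. On the left the anti-IL-35 points run from -2.20 for Ighg3 to 1.24 for Ighe, and on the right Ighd and Ighg2c with anti-IL-35 lie above 0.

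The balance of the classes was read as each gene's share of all heavy chain reads in a library, which compares libraries and not classes, since the genes differ in length. Ighm took 70.4 ± 0.277% of heavy chain reads with the combination, 38.9 ± 0.652% with anti-IL-35, 76.1 ± 0.0517% with cGAMP and 66.1 ± 0.203% with control IgG. Igha took 13.2 ± 0.241%, 46.9 ± 0.899%, 10.4 ± 0.261% and 20.0 ± 0.386% in the same order of groups. Thus with anti-IL-35 the share of Ighm fell and that of Igha rose, and with cGAMP the reverse held. Groups of 3 against 3 cannot reach an exact permutation p under 0.10, so the shares are given as descriptions. The share of the 6 switched genes together was 28.6, 28.9 and 29.1% in the combination libraries, 59.6, 60.7 and 59.4% in the anti-IL-35 libraries, 23.0, 23.2 and 23.1% in the cGAMP libraries and 32.9, 33.0 and 33.3% in the IgG control libraries. No 2 groups overlapped. Against the IgG control the switched share differed by -4.23 percentage points with the combination, 26.8 points with anti-IL-35 and -10.0 points with cGAMP. With the combination the share of Igha differed by -6.78 points and that of Ighe by -0.00874. Those of Ighg1, Ighg2b, Ighg2c and Ighg3 were higher by 0.896, 0.312, 0.811 and 0.538 points. With cGAMP the differences were -9.57 for Igha, -0.94 for Ighg2b, -0.188 for Ighg3, 0.263 for Ighg1, 0.359 for Ighg2c and 0.078 for Ighe. With anti-IL-35 the share of Igha was 26.9 points higher than in the IgG control and that of Ighm differed by -27.1 points, while the level of Ighm fell 3.09-fold and that of Igha rose 1.28-fold. The shares of Ighg2c and Ighg1 were higher by 1.61 and 1.04 points. The share of Ighg3 fell to 0.893 ± 0.0439%, against 2.26 ± 0.0917% in the IgG control, and that of Ighg2b to 3.93 ± 0.0508%, against 5.28 ± 0.115%.

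**Figure D3:**
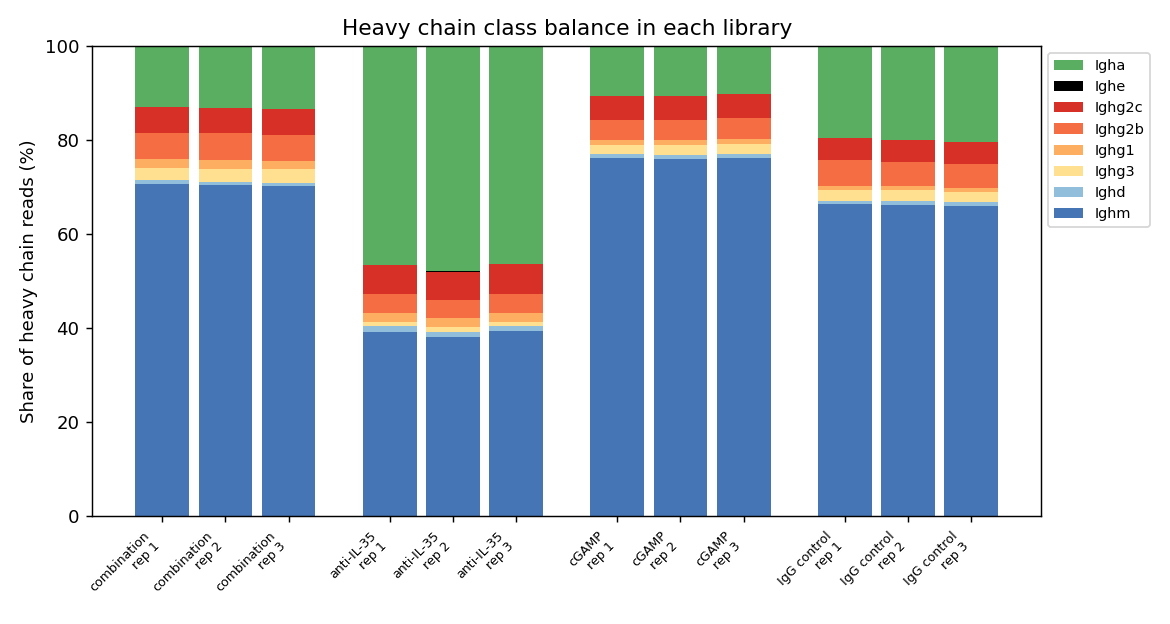
Share of heavy chain reads (vertical axis, percent) taken by each of the 8 heavy chain genes, with 1 stacked bar per library. Ighm takes 38.2 to 39.4% in the anti-IL-35 libraries and at least 65.9% in the other libraries, and the Ighe layer is too thin to see in most bars.

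Within the gamma genes the balance also differed between groups. Ighg1 made up 11.3 ± 0.438% of gamma reads with the combination, 14.7 ± 0.747% with anti-IL-35, 8.98 ± 0.118% with cGAMP and 6.62 ± 0.0552% with control IgG. Ighg3 made up 17.9 ± 0.28%, 6.88 ± 0.445%, 16.5 ± 0.264% and 17.3 ± 0.464%, and Ighg2c 35.0 ± 0.839%, 48.2 ± 1.23%, 39.9 ± 0.471% and 35.6 ± 0.432% in the same order of groups. Ighg2b made up 35.8 ± 0.414%, 30.3 ± 0.314%, 34.6 ± 0.372% and 40.5 ± 0.265%. The share of Ighg1 was thus lowest in the IgG control and that of Ighg2b highest there, and the share of Ighg3 was lowest in the anti-IL-35 group.

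While the classes shifted, the ratio of heavy to light chain reads stayed within a narrow range. There were 223 ± 1.35 heavy chain reads per 100 Igkc reads with the combination, 216 ± 3.17 with anti-IL-35, 218 ± 5.80 with cGAMP and 223 ± 6.08 with control IgG. Over the same groups Igha reads per 100 Ighm reads were 18.8 ± 0.416, 120.0 ± 4.36, 13.7 ± 0.342 and 30.3 ± 0.675. The genes of the 2 classes joined by the J chain, summed, gave 763 ± 40.9 reads per 100 Jchain reads with the combination, 669 ± 66.6 with anti-IL-35, 749 ± 10.3 with cGAMP and 707 ± 10.2 with control IgG. The anti-IL-35 range, 623 to 745, overlapped the combination, cGAMP and IgG control ranges. Jchain reads per 100 Igkc reads were 24.5 ± 1.17, 27.9 ± 2.65, 25.2 ± 0.406 and 27.1 ± 0.705 in the order combination, anti-IL-35, cGAMP and IgG control. The lambda constant regions Iglc1, Iglc2 and Iglc3 together gave 6.97 ± 0.0436, 6.82 ± 0.354, 7.95 ± 0.425 and 7.74 ± 0.0428 reads per 100 Igkc reads. This sum hides opposite changes with the combination against the IgG control. Iglc1 rose (log2 fold change 0.34 ± 0.05, adjusted p = 1.43e-06, edgeR), while Iglc2 (-0.39 ± 0.06, adjusted p = 3.91e-06) and Iglc3 (-0.46 ± 0.09, adjusted p = 5.33e-05) fell.

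**Figure D4:**
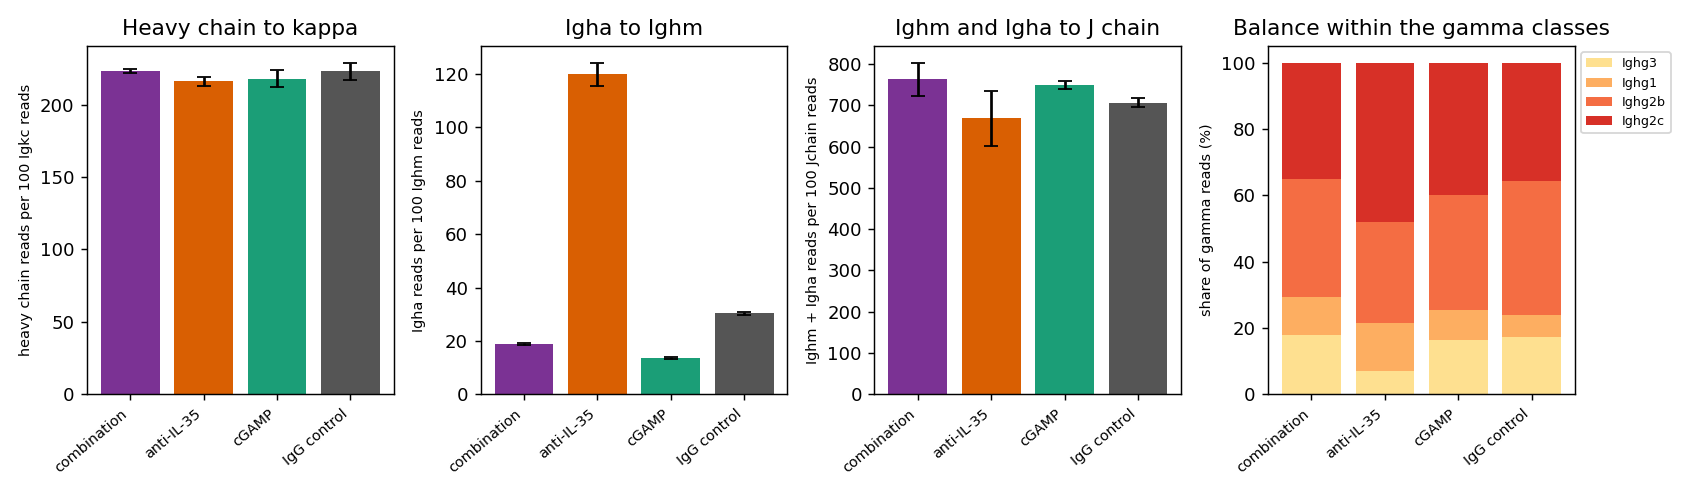
From left to right, heavy chain reads per 100 Igkc reads, Igha reads per 100 Ighm reads, summed Ighm and Igha reads per 100 Jchain reads (bars are means, whiskers 1 SD, n = 3), and the mean share of each gamma gene in gamma reads (percent). The heavy to kappa ratio runs from 216 to 223 and the Igha to Ighm ratio from 13.7 to 120.0.

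B cell markers fell with anti-IL-35 as well, so each member was also fitted with libraries scaled on the summed counts of the 18 B cell genes. That scaling moved the median of all genes to 0.17, 0.59 and 0.07 (log2) in the combination, anti-IL-35 and cGAMP comparisons with the IgG control, and values on this scale are relative to B cell transcripts. With anti-IL-35, Ighm (-1.02 ± 0.03, adjusted p = 1.87e-30, edgeR), Ighg3 (-1.59 ± 0.06, adjusted p = 2.59e-27) and Ighg2b (-0.68 ± 0.04, adjusted p = 1.46e-18) still fell, and so by more than the B cell genes did. Igha (0.98 ± 0.04, adjusted p = 1.12e-25) and Ighg1 (0.89 ± 0.06, adjusted p = 1.85e-17) rose. Ighd and Ighg2c, which fell per library, were higher on this scale (0.21 ± 0.07, adjusted p = 0.00804, and 0.18 ± 0.04, adjusted p = 0.000186), so that they fell less than the B cell genes. The call of Ighd was lost without anti-IL-35 replicate 1 (adjusted p = 0.111) or IgG control replicate 1 (adjusted p = 0.06). Igkc (-0.21 ± 0.03) and Jchain (-0.17 ± 0.05) were slightly lower, and both calls were lost when libraries were scaled on 4 pan-B markers (-0.032, adjusted p = 0.46, and 0.009, adjusted p = 0.867). That of Jchain was lost also without anti-IL-35 replicate 3 (-0.075, adjusted p = 0.0799). In all, 5 members were higher and 5 lower with anti-IL-35 on this scale, where 68.4% of all genes were called, 67.4% higher and 1.06% lower. With the combination 6 were higher and 2 lower (33.3% of all genes, 31.5% higher and 1.78% lower), and with cGAMP 4 were higher and 2 lower (15.9%, 13.4% higher and 2.5% lower). The combination had 7 members higher and 2 lower than anti-IL-35 (63.0% of all genes, 1.23% higher and 61.8% lower) and 8 higher and 1 lower than cGAMP (22.9%, 21.4% higher and 1.51% lower). Anti-IL-35 had 3 higher and 5 lower than cGAMP (69.1%, 67.9% higher and 1.15% lower). Heavy chain reads per 100 B cell marker reads were 692 ± 5.57 with the combination, 476 ± 11.2 with anti-IL-35, 578 ± 10.8 with cGAMP and 568 ± 9.97 with control IgG. This ratio depends on the genes summed. Cd37, the gene of highest level among the 18, stood at 310 ± 25.8 CPM with anti-IL-35 and 280 ± 7.09 CPM with control IgG. The 4 pan-B markers summed to 420 ± 7.62 and 727 ± 4.58 CPM in these groups, and the ratio to them was not computed.

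Most members were higher with the combination than with the antibody alone. Ighm was 3.53-fold higher with the combination than with anti-IL-35 (log2 fold change 1.82 ± 0.03, adjusted p = 7.89e-43, edgeR), Ighg3 6.11-fold higher (2.61 ± 0.05, adjusted p = 2.29e-37) and Ighg2b 2.78-fold higher (1.47 ± 0.04, adjusted p = 2e-31). Igkc was 1.89-fold higher (0.92 ± 0.03, adjusted p = 1.81e-28) and Jchain 1.66-fold higher (0.73 ± 0.04, adjusted p = 1.48e-17). Igha and Ighe were the members that were lower, Igha 1.81-fold and Ighe 6.89-fold (-2.79 ± 0.41, adjusted p = 1.31e-06). The rise of Ighd (0.28 ± 0.07, adjusted p = 0.00586) was lost without anti-IL-35 replicate 2 (adjusted p = 0.0853). Against cGAMP alone the combination raised Ighg1 1.70-fold (0.77 ± 0.06, adjusted p = 1.27e-15), Ighg3 1.47-fold (0.56 ± 0.05), Ighg2b 1.40-fold (0.49 ± 0.04), Igha 1.38-fold (0.47 ± 0.03) and Ighg2c 1.19-fold (0.25 ± 0.04), and Ighm did not differ by the test (0.012 ± 0.027, adjusted p = 0.843). The rise of Igkc (0.09 ± 0.03, adjusted p = 0.041) was lost with RLE size factors, library totals alone, DESeq2, no filter and the replicate block (adjusted p 0.0522 to 0.36), and without combination replicate 1, 2 or 3, cGAMP replicate 1 or 2, or IgG control replicate 1, 2 or 3 (adjusted p 0.0533 to 0.21).

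The effect of cGAMP beside the antibody (combination against anti-IL-35) was set against its effect without it (cGAMP against IgG control) by an interaction term. It was called for 9 of the 10 members, 8 with a positive difference and 1 with a negative one, where 10.4% of all genes were called, 3.62% positive and 6.78% negative. The difference was largest in size for Ighe (-5.58 ± 0.53 log2, adjusted p = 1.57e-11, edgeR), followed by Ighg3 (2.76 ± 0.07, adjusted p = 1.89e-32), Ighg2b (1.78 ± 0.06, adjusted p = 1.07e-28) and Ighm (1.64 ± 0.04, adjusted p = 2.8e-34). Igkc (0.91 ± 0.04), Jchain (0.83 ± 0.06), Ighg2c (0.68 ± 0.06) and Ighg1 (0.49 ± 0.08) followed. That of Ighd (0.28 ± 0.10, adjusted p = 0.0476) lost its call under RLE size factors (adjusted p = 0.0524), with the replicate block (adjusted p = 0.063) and without any 1 of 9 libraries, named with the alternatives. Relative to B cell markers the term of Ighd turned to -0.19 ± 0.10 (adjusted p = 0.10), and was -0.344 with 4 pan-B markers (adjusted p = 0.00266). That of Ighg2c was 0.21 ± 0.06 (adjusted p = 0.00191) and lost its call with 4 pan-B markers (0.056, adjusted p = 0.499). The term was 0.02 ± 0.08 for Ighg1 (adjusted p = 0.876) and -0.37 ± 0.05 for Igha (adjusted p = 1.08e-07), with the median of all genes at -0.49. On that scale 6 members had a positive and 2 a negative term, where 53.0% of all genes were called, 1.3% positive and 51.7% negative.

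Levels were compared between classes only per length. Per 1000 bases of coding length, Ighm led in the combination (5867 ± 78.3 CPM), cGAMP (5819 ± 34.1 CPM) and IgG control (5143 ± 43.1 CPM) groups, and Igha came next at 1337 ± 20.1, 968 ± 22.0 and 1888 ± 52.8 CPM. In the anti-IL-35 group Igha led at 2425 ± 58.5 CPM per 1000 coding bases and Ighm followed at 1662 ± 22.5. With all annotated exon bases as the length, Ighm kept the lead in the anti-IL-35 group too, at 1315 ± 17.8 against 1119 ± 27.0 CPM for Igha. The authors' annotation is not named in the sources used here, so the order of these classes with anti-IL-35 rests on the length chosen. Ighg2b and Ighg2c also changed places between the 2 lengths in the combination and IgG control groups. Ighe came last in each group by both lengths, at 0.337 ± 0.155, 2.37 ± 0.907, 6.97 ± 1.07 and 0.997 ± 0.515 CPM per 1000 coding bases in the order combination, anti-IL-35, cGAMP and IgG control.

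The genes whose pattern was most like that of a member were sought among 10313 genes outside the immunoglobulin loci, by the root-mean-square difference of centred log2 CPM over the 12 libraries. For Igkc these were Ly6d (0.0996), Mzb1 (0.10) and Pou2af1 (0.111), and for Jchain Ccr7 (0.0794), Mzb1 (0.0836) and Pou2af1 (0.0932). Mzb1 is a chaperone of antibody assembly and Pou2af1 a B cell transcription coactivator, and Mzb1 stood at 82.4, 49.4, 81.5 and 90.4 CPM in the combination, anti-IL-35, cGAMP and IgG control groups. For Ighg1 they were heat shock chaperone genes, Hsph1 (0.128), Dnaja1 (0.167) and Hsp90aa1 (0.189), with Hsph1 at 251, 150.0, 162 and 105 CPM in the same order of groups. Ighg2b was most like Derl3 (0.212), Mzb1 (0.271) and Ptpn14 (0.273), and Ighg2c like Pdia4 (0.123), Cd93 (0.128) and Creb3l2 (0.131). Ighm was most like Chst1 (0.255), Ppfia4 (0.277) and S1pr3 (0.332), as was Ighg3 (0.423, 0.468 and 0.55). The root-mean-square spread of the members themselves was 0.763 for Ighm, 1.01 for Ighg3, 0.375 for Igkc and 0.175 for Ighd. The differences therefore do not rank closeness between members. Igha was most like 4930581F22Rik (0.157), Ifit3 (0.252) and H2-K2 (0.261), and Ighd like Rgl1 (0.0659), Scpep1 (0.0704) and Zc3h12d (0.0708). No gene came close to Ighe: the nearest, Alox15, differed by 1.43, where Ighe itself spread by 1.74.

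Most of the B cell and plasma cell genes examined fell with anti-IL-35. Of all tested genes 15.7% were called higher and 7.5% lower with the combination, 23.2% in all. With anti-IL-35 these shares were 15.7% and 9.32%, 25.0% in all, and with cGAMP 9.37% and 3.56%, 12.9% in all. Of 18 B cell surface and identity genes, 0 rose and 11 fell with the combination (median log2 fold change -0.23), 1 rose and 16 fell with anti-IL-35 (-0.74), and 0 rose and 3 fell with cGAMP (-0.05), where the median of all genes was -0.02, -0.02 and 0.02. The gene that rose with anti-IL-35, Cd37 (0.14 ± 0.05, adjusted p = 0.0327, edgeR), encodes a tetraspanin that other leukocytes carry too, and DESeq2 called 0 genes of the list higher in any of these comparisons (edgeR at an unadjusted p under 0.05, 1 in each). Cd79a, part of the B cell receptor, stood at 227 ± 9.73 CPM with the combination, 157 ± 5.03 CPM with anti-IL-35, 247 ± 12.2 CPM with cGAMP and 259 ± 6.05 CPM with control IgG. Of 21 plasma cell and antibody secretion genes, 2 rose and 2 fell with the combination (-0.08), 1 rose and 12 fell with anti-IL-35 (-0.41), and with cGAMP 0 were called by edgeR or DESeq2 (-0.06; at an unadjusted p under 0.05, 1 higher and 2 lower by edgeR). With the combination the genes called were no larger a part of this list than of all tested genes. They were Xbp1 (0.33) and Edem1 (0.15), higher, and Irf4 (-0.32) and Cd28 (-0.30), lower. The gene that rose with anti-IL-35 was Xbp1, a regulator of secretory cells (0.13 ± 0.05, adjusted p = 0.0387, edgeR), and Txndc5, a folding enzyme of the endoplasmic reticulum, was among those that fell (-0.55 ± 0.05, adjusted p = 4.68e-13). All 4 tested light chain genes other than kappa fell with anti-IL-35, among them the lambda constant regions Iglc1 by 0.71 on the log2 scale and Iglc2 by 1.27. With the combination 1 of them rose and 2 fell, and with cGAMP 0 were called.

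Genes of the switching machinery were read against the share of all genes called, 23.2% with the combination, 25.0% with anti-IL-35 and 12.9% with cGAMP. Of 25 class switch recombination genes, 2 rose and 2 fell with the combination, 2 rose and 1 fell with anti-IL-35, and 0 were called with cGAMP (medians -0.01, -0.00 and 0.00), by edgeR and DESeq2 alike (at an unadjusted p under 0.05, 1 higher and 1 lower with cGAMP by edgeR). Among those that fell were the end-joining gene Xrcc5 with the combination (-0.85 ± 0.15, adjusted p = 1.35e-05, edgeR) and the damage kinase gene Atm with anti-IL-35 (-0.25 ± 0.08, adjusted p = 0.0111). The 2 that rose with anti-IL-35 were Nfil3, a transcription factor that NK cells use too (1.01 ± 0.08, adjusted p = 1.28e-14, edgeR), and H2afx, a histone of the DNA damage response (0.29 ± 0.07, adjusted p = 0.0014). Of 17 tested signals that direct switching, 4 rose and 1 fell with the combination, 4 rose and 3 fell with anti-IL-35, and 3 rose with cGAMP. Among them Il4ra, the IL-4 receptor chain, rose by 0.78 ± 0.05 with the combination (adjusted p = 5.1e-18), 0.91 ± 0.05 with anti-IL-35 (adjusted p = 1.37e-20) and 0.15 ± 0.05 with cGAMP (adjusted p = 0.0475). Tnfsf13b, which encodes the B cell survival factor BAFF, rose by 1.57 ± 0.27, 1.53 ± 0.27 and 1.24 ± 0.27 (adjusted p = 7.87e-06, 9.49e-06 and 0.00084, edgeR) with the combination, anti-IL-35 and cGAMP. Stat6, which relays the IL-4 signal, rose by 0.37 with the combination and 0.41 with anti-IL-35. Of the B cell receptors for such signals, Cd40 (-0.94 ± 0.14) and Tnfrsf13c, the receptor of BAFF (-0.73 ± 0.11), fell with anti-IL-35. The receptor gene Il21r fell with anti-IL-35 too (-0.59 ± 0.08) and was the gene that fell with the combination (-0.22 ± 0.08). Tnfsf13b, Cd40 and Tnfrsf13c, like other named list members outside the 4 of highest level, were named after their values were seen. Il4, named after its values were seen, had 3 to 4 counts with the combination, 3 to 11 with anti-IL-35, 10 to 17 with cGAMP and 5 to 8 with control IgG. Of 12 germinal centre genes, 2 rose and 1 fell with the combination, 2 rose and 3 fell with anti-IL-35, and 3 rose with cGAMP. Those that fell were Rgs13 with the combination (-1.82 ± 0.65) and Mef2b (-1.28 ± 0.41), Gpr183 (-0.62 ± 0.13) and Plxnb2 (-0.30 ± 0.05) with anti-IL-35. Fas and Bcl6 rose with all treatments, Bcl6 by a log2 fold change of 1.06 ± 0.08, 1.20 ± 0.08 and 0.58 ± 0.08 with the combination, anti-IL-35 and cGAMP. Bulk RNA does not tell which cells carried these transcripts, and all 12 neutrophil markers rose with each treatment too. The part of such cells in the rises of Bcl6, Fas, Il4ra, Stat6 and Tnfsf13b was not tested.

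Of 15 genes for Fc receptors and antibody transport, 5 rose and 5 fell with the combination, 5 rose and 7 fell with anti-IL-35, and 3 rose and 2 fell with cGAMP. Their median log2 fold changes were -0.19, -0.56 and -0.08, where the median of all genes was -0.02, -0.02 and 0.02. Of all genes 23.2%, 25.0% and 12.9% were called in these comparisons, a baseline for the marker counts below too. Fcgr3, the activating IgG receptor that NK cells and myeloid cells share, rose by 0.82 ± 0.05 with the combination (adjusted p = 1.72e-18, edgeR), 0.85 ± 0.05 with anti-IL-35 (adjusted p = 4.13e-19) and 0.23 ± 0.05 with cGAMP (adjusted p = 0.000771). Fcgr2b, the inhibitory IgG receptor of B cells and myeloid cells, fell by 0.40 ± 0.07, 0.58 ± 0.07 and 0.79 ± 0.07 on the log2 scale in the same order. Ms4a2, the beta chain of the IgE receptor, rose by 1.96 ± 0.41, 1.57 ± 0.42 and 1.53 ± 0.42 with the combination, anti-IL-35 and cGAMP (adjusted p = 0.000233, 0.00307 and 0.00884), and Fcer1a, its IgE-binding chain, by 1.07 ± 0.27 and 1.10 ± 0.27 with the combination and anti-IL-35. Markers of mast cells and basophils, the cells that bind IgE, rose in 9 of 10 tested genes with the combination, 8 with anti-IL-35 and 4 with cGAMP (medians 1.33, 1.11 and 0.23). Kit, a growth factor receptor that other cells carry too, fell with the combination (-0.20 ± 0.07, adjusted p = 0.0417) and with anti-IL-35 (-0.31 ± 0.07, adjusted p = 0.000558). The summed level of these markers was 751 ± 15.0, 694 ± 12.7, 436 ± 9.18 and 319 ± 14.2 CPM with the combination, anti-IL-35, cGAMP and control IgG. Hdc was the marker of highest level in the sum with the combination, anti-IL-35 and cGAMP. The relation of these markers to Ighe was not tested. All 12 neutrophil markers rose in each of the 3 comparisons with the IgG control (medians 2.01, 2.17 and 1.22 with the combination, anti-IL-35 and cGAMP). The part of neutrophils in the Fc receptor values was not tested.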

How the data were processed

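RNA of sorted tumour NK cells was sequenced in 12 libraries, 4 groups of 3. The authors deposited unnormalized counts of reads for each gene. The submitters' processing notes name featureCounts, the aligner STAR 2.7.7a, SAMtools 1.15 and the build mm10. The sources used here name no annotation, strand setting or treatment of reads with several matches. The 12 columns of the table were mapped to samples by their titles. IDs without a symbol (1049) took 0.251% of counts and were kept. No pair of libraries within a group matched to within sampling noise (3.27 to 11.8 chi-square units per degree of freedom), so each was kept as a sample.

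Counts were fitted with edgeR 4.0.16 (R 4.3.3) in 1 fit of all 12 libraries: filterByExpr with a minimum count of 10, TMM, robust quasi-likelihood tests, and Benjamini-Hochberg adjustment over 14182 genes, called at an adjusted p under 0.05. The common biological coefficient of variation was 0.0958. Standard errors were derived from the F statistic. A further fit scaled libraries on the summed counts of 18 B cell genes. Tested on simulated counts for the combination against the IgG control over 13909 genes, the fit recovered 77% of genes changed 2-fold and 37% of those changed 1.3-fold, with 5.79% false among its calls (77%, 38% and 5.74% with the B cell scaling). The changed genes were drawn from all genes with a mean above 1 CPM. The rates were not split by level, so they do not give the power at the levels of the members. Shares, ratios and lengths were computed with pandas 2.3.3 and scipy 1.17.1. No batch was given in the labels. Same-numbered libraries of different groups did not deviate together (correlations of -0.0247 to 0.038), so the numbers were not taken as pairs.

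The 10 members and the gene lists were chosen with earlier results of these data known. Named besides the members were the 3 genes most like each member (passing the filter, mean of at least 5 CPM, no immunoglobulin genes) and up to 4 genes of highest mean level per list. Other list genes, such as those behind small counts, were named after their values were seen. Alternatives tried were DESeq2 1.42.0, scaling by RLE or on totals alone, leaving out the filter on low counts or asking 1 CPM in 6 libraries, fitting the compared groups alone, a replicate block, 4 pan-B markers for the B cell scaling, leaving out each library, and shares per coding length or without Ighd. Shares per exon length were added after seeing the data.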

Additional observations from a re-analysis of the deposited data

Results flagged for a closer look

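The effect of cGAMP beside the antibody (combination against anti-IL-35) differed from its effect without the antibody (cGAMP against IgG control) for 9 members by the interaction term of the edgeR fit. The difference, on the log2 scale, was 1.641 for Ighm, 0.284 for Ighd, 0.494 for Ighg1, 1.782 for Ighg2b, 0.684 for Ighg2c, 2.76 for Ighg3, -5.577 for Ighe, 0.912 for Igkc and 0.831 for Jchain. Relative to B cell markers the term was 1.166 for Ighm, 1.306 for Ighg2b, 2.284 for Ighg3, -6.047 for Ighe, 0.436 for Igkc and 0.354 for Jchain, each called. On that scale it was 0.21 for Ighg2c, called but lost with 4 pan-B markers (0.056), 0.018 for Ighg1, not called, and -0.19 for Ighd, not called and turned in sign. The part that the amount of B cell RNA has in these differences was not tested otherwise.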

How the results depend on the processing

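Leaving out 1 library at a time, the number of members called against the IgG control was 6 to 8 with the combination, 9 to 10 with anti-IL-35 and 5 to 7 with cGAMP, and over all 19 alternatives the ranges were the same. It was 9 to 10 for the combination against anti-IL-35, 6 to 7 for the combination against cGAMP, 9 in each case for anti-IL-35 against cGAMP and 8 to 9 for the interaction. The switched share differed by -4.35 to -4.08 points (combination minus IgG control), 26.4 to 27.3 (anti-IL-35 minus IgG control), -10.1 to -9.89 (cGAMP minus IgG control), -31.5 to -30.7 (combination minus anti-IL-35), 5.64 to 5.92 (combination minus cGAMP) and 36.4 to 37.3 (anti-IL-35 minus cGAMP). These differences moved by more than the spread between libraries per exon length, to -3.04, 25.3, -7.94, -28.4, 4.90 and 33.3 in the same order. Per coding length, cGAMP minus IgG control was -10.7 and combination minus cGAMP 6.32.

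With the replicate block the number called was 8, 10 and 6 for the combination, anti-IL-35 and cGAMP against the IgG control. Of the members' values under the block, 136 kept their call, 2 lost it (Ighd in the interaction, Igkc between combination and cGAMP) and 2 gained it, both of Jchain relative to B cell markers (0.139 for the combination against the IgG control, -0.119 for anti-IL-35 against cGAMP).

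Values that turned their sign were small. With library totals alone these were Ighm (-0.032) between combination and cGAMP, Ighg2c (-0.03) and Igkc (-0.106, adjusted p = 0.00999, edgeR) between cGAMP and IgG control, and Igkc (-0.062) between combination and IgG control. Between cGAMP and IgG control, Ighd ranged from -0.04 to 0.015 with 1 library left out, and turned to 0.003, 0.007 and 0.015 without cGAMP replicate 1 or 2 or IgG control replicate 2. Igkc turned to -0.028 with no filter, -0.024 with the compared groups alone, and -0.025, -0.018 and -0.014 without anti-IL-35 replicate 1, cGAMP replicate 3 or IgG control replicate 2 (range with 1 library left out, -0.025 to 0.027). Relative to B cell markers, the interaction of Ighg1 turned to -0.134 with 4 pan-B markers and to -0.018 and -0.032 without combination replicate 2 or anti-IL-35 replicate 3 (range -0.032 to 0.051). Jchain turned to 0.009 (anti-IL-35 against IgG control) and 0.038 (anti-IL-35 against cGAMP) with 4 pan-B markers. Of the members' values under all alternatives, 2268 kept direction and call, 59 lost the call, 26 gained it and 17 turned. The interaction of Ighd lost its call without combination replicate 1, 2 or 3, anti-IL-35 replicate 2 or 3, cGAMP replicate 1 or 2, or IgG control replicate 2 or 3 (adjusted p 0.0649 to 0.168). The cause was not tested. Ighe rests on 28 to 493 reads per group, so small changes of it were not detectable at this depth.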
